A study of Rattus norvegicus with 24 samples.

Results

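The left tibialis anterior (TA), a muscle at the front of the lower leg, was compared between aged rats whose nerve had been silenced for the second time (repeated atrophy) and aged rats that had been left to recover from the first silencing (recovery). All animals were male Fischer 344 rats aged 23 ± 1 months. Tetrodotoxin (TTX), a blocker of sodium channels that keeps the nerve from firing, was delivered to the left common peroneal nerve by an implanted osmotic pump for 6 to 7 days in every animal of both groups. The TA of the recovery group, labelled TTX+Recovery, was taken after a further 9 days without TTX. In the repeated atrophy group, labelled Repeated TTX (RTTX), these 9 days were followed by another 5 to 6 days of TTX. The comparison therefore rests on 6 of the 24 samples of the series, 3 left limbs in each group, chosen by their labels and not by any measured value. Each limb came from its own animal. The untreated right limbs of the same 6 animals, and both limbs of 3 animals killed after the first silencing (atrophy) and of 3 sham-operated animals, were sequenced too.

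The model has limits that touch every value below. Animals of the repeated atrophy group had the pump exchanged in an additional operation and were sampled later after the first operation than the recovery animals, so renewed silencing, a further operation and elapsed time cannot be told apart in the left limbs. TTX stops impulses but leaves the nerve in place, and a right limb, though untreated, belongs to an operated animal that had lost the use of the left TA. Whole muscle was homogenised. In such samples, fewer cells of a type and less RNA per cell cannot be told apart.

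Skeletal muscle fibres adjust their gene expression to the activity of their motor nerve. In an active adult fibre, the subunits of the acetylcholine receptor are transcribed mainly by the nuclei under the nerve ending, and nuclei elsewhere are kept silent by electrical activity. When impulses stop, this repression is lifted through myogenic factors such as myogenin, and ubiquitin ligases of the atrogene group, the proteasome and the autophagy machinery are switched on, while genes of oxidative metabolism that depend on the coactivator PGC-1alpha and on calcium signals are turned down. Recovery of activity reverses much of this and is accompanied by remodelling of the connective tissue between fibres.

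Levels are given as rescaled CPM: the deposited CPM, which are read counts scaled to a total of 1000000 per library, divided by 1 factor per library, the median over genes of its ratio to a reference. Values of a group are given in the order of replicates 1, 2 and 3. Differences are log2 fold changes (log2 FC) of repeated atrophy minus recovery, on the scale of log2(rescaled CPM + 1), with their standard error (SE), from limma. Rows were called differentially expressed genes (DEGs) from a 1.2-fold change upwards where the p adjusted over all rows tested (Benjamini-Hochberg) was 0.05 or less. Beside them stand the same difference between the right limbs of these animals (right limb log2 FC) and the within-animal log2 FC, which is the difference after each animal's right limb has been subtracted from its left limb. DEGs described below kept their call in each of the 6 fits that left out 1 of the 6 limbs, unless the largest adjusted p of those fits is given.

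In total, 3023 of 14031 rows tested (21.5%) were DEGs. Of these, 1425 (10.2% of all rows) were upregulated and 1598 (11.4%) were downregulated in repeated atrophy relative to recovery, and 551 of the former and 906 of the latter differed at least 2-fold. Shares of 10.2% and 11.4% are the background for every count of upregulated and downregulated list members below. The 3 limbs of repeated atrophy lay above the 3 of recovery in 2668 rows (19%) and below them in 2762 rows (19.7%). The balance of directions depended on the scale. On the CPM as deposited, without rescaling, 2941 rows (21%) were called higher and 882 (6.29%) lower, so that 23.1% of the calls were downregulated in place of 52.9% on the rescaled values, and the median log2 FC of all rows moved from -0.012 to 0.184. The 10 most abundant genes took 25.8% to 27.7% of the CPM in the recovery limbs and 15.6% to 19.2% in the repeated atrophy limbs. All 1425 upregulated DEGs were also called on the deposited scale, 881 of the 1598 downregulated DEGs were, and 0 were called the other way. Downregulated genes named below were called on both scales unless the text says otherwise.

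The libraries of the 6 limbs were inferred from the smallest step between low CPM values to hold 19.8 to 24.4 (recovery) and 23.9 to 28.2 (repeated atrophy) times 1000000 reads. Leaving out 1 limb at a time gave between 1554 and 2641 DEGs, the lowest without recovery replicate 1, and 1134 of the 3023 DEGs kept their call in all 6 fits. Without recovery replicate 2 there were 1654 DEGs and without repeated atrophy replicate 1 there were 1818. Recovery replicate 3 lay nearer to the repeated atrophy limbs than the other two in several of the lists below, and without it there were 2641 DEGs. Defining genes of skeletal muscle were abundant in all 6 limbs: Acta1, the actin of the thin filament, stood at 26303, 13071 and 15384 in repeated atrophy and 43648, 47023 and 33579 in recovery, and Ckm, muscle creatine kinase, at 18968, 9789 and 11344 and 26906, 27012 and 21276.

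In the right limbs, 0 rows (0.0%) passed the same test between animals of the 2 groups, with a smallest adjusted p of 0.16 and 1068 rows at an unadjusted p under 0.05. A fit of these 6 right limbs alone called 5. The right limbs leaned the same way as the left limbs in 2502 of the 3023 DEGs (82.8%), against 8991 of all 14031 rows, and 436 of these DEGs had an unadjusted p under 0.05 in the right limbs. The right limb difference was smaller than the left limb difference in 3020 DEGs, and its median size over the DEGs was 0.248 against 0.98 in the left limbs. DEGs were chosen for a large left limb difference, so these sizes describe and do not test the contrast between limbs. The difference of within-animal differences, which blocks on the animal, was called in only 7 rows (0.0499%) while 2533 rows had an unadjusted p under 0.05. It kept the direction of the left limb difference in 3020 of the DEGs, against 11726 of all 14031 rows, and had an unadjusted p under 0.05 in 1797. Both DEG counts rest on the left limbs by which the DEGs were chosen and are no separate support. Blocked on the animal, nearly all single gene calls below were lost, and the within-animal value is given beside a part of them.

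**Figure D1:**
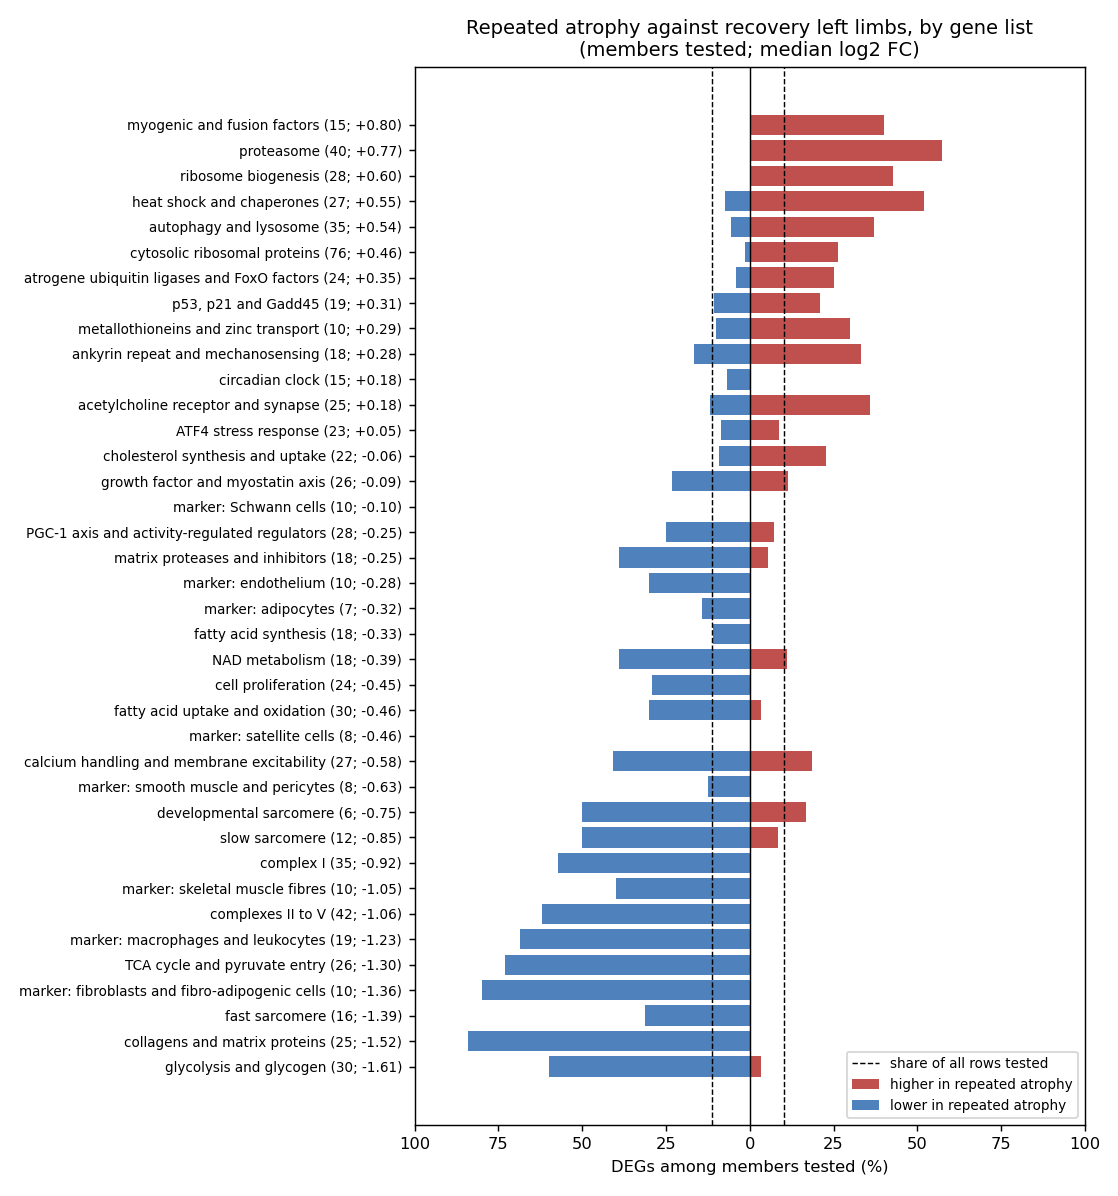
The 38 gene lists, ordered by their median log2 FC between repeated atrophy and recovery left limbs (number of members tested and median in brackets); bars give the percentage of tested members that were upregulated DEGs (red, to the right) or downregulated DEGs (blue, to the left), and dashed lines give the 10.2% and 11.4% of all rows. Lists of myogenic factors, proteasome, ribosome biogenesis and chaperones stand to the right, and lists of glycolysis, collagens, fast sarcomere and respiration to the left.

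Of 25 tested genes of the acetylcholine receptor and the neuromuscular synapse, 9 were upregulated and 3 downregulated in repeated atrophy. The shares were 36% and 12%, against 10.2% and 11.4% of all rows, so the downregulated share was near that of all rows. The deposited scale, and the fits without repeated atrophy replicate 1 or 2 or recovery replicate 3, gave 2 downregulated, and those without recovery replicate 1 or 2 gave 1. The median log2 FC was 0.18 against -0.012 for all rows. This median was 0.50 on the deposited scale, 0.29 with quantile normalization, 0.44 without repeated atrophy replicate 1, 0.04 without repeated atrophy replicate 3, 0.09 without recovery replicate 2, 0.31 without recovery replicate 3 and 0.40 within animals. Among rows with a mean of at least 1 CPM (22 genes) it was 0.70, and at 10 CPM (15 genes) 1.21. The list includes Myog, which also counts among the myogenic factors below. Chrna1, the subunit of the receptor that binds acetylcholine, stood at 537, 1023 and 1053 in repeated atrophy and 87.4, 45.9 and 246 in recovery. Its lowest repeated atrophy limb was above its highest recovery limb, and the log2 FC was 3.05 (SE 0.72, adjusted p = 0.0077). Chrnd, the delta subunit, followed the same order of limbs with 589, 805 and 1017 against 90.2, 67.7 and 213 (log2 FC 2.83, SE 0.70, adjusted p = 0.01). Chrnb1, the beta subunit, rose less but with a narrower spread, from 73.4, 74.2 and 84.9 to 195, 159 and 190.3 (log2 FC 1.21, SE 0.20, adjusted p = 0.001). In the right limbs of the same animals, none of the 3 passed the test, with log2 FC of 1.16 for Chrna1, 1.49 for Chrnd and -0.18 for Chrnb1. Within animals the log2 FC was 1.88 for Chrna1, 1.34 for Chrnd and 1.39 for Chrnb1 (unadjusted p = 0.065, 0.078 and 0.00014).

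E-boxes, the sites bound by myogenin and its relatives, are known elements of receptor subunit promoters, and the last 130 bases before the annotated starts of Chrna1 and Chrnb1 are therefore shown (RefSeq, build GRCr8, 5′ to 3′ on the gene's strand, which is the minus strand for both). Capitals mark matches to CAGCTG or CACCTG on either strand, the latter read as CAGGTG on the other strand.
Chrna1, chr3:78877354-78877483: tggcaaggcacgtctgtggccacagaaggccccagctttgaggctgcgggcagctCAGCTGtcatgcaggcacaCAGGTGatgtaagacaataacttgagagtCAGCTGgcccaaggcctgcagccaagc
Chrnb1, chr10:55015108-55015237: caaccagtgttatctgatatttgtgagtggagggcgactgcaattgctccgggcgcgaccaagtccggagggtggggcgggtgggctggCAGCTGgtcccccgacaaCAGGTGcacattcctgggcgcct
In the 250 bases before the start, Chrna1 held 3 such matches and Chrnb1 held 2, while 4.5% of 33465 rat promoters of that length held at least 2 and 25.8% at least 1. Chrnd, Chrng, Chrne and Musk held 1 match each, and Myog and Ache held 0. Other E-boxes of the general form CANNTG, found in 65.5% of these promoters, were not counted. A count of 0 therefore does not mean that no E-box is present. A match describes these letters and not binding.

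Further members of the synapse list rose with the receptor. Rapsn, the scaffold that clusters receptors, went from 15.9, 16.4 and 16.7 in recovery to 32.4, 27.5 and 33.5 in repeated atrophy (log2 FC 0.88, adjusted p = 0.002), without overlap and with no lean in the right limbs (log2 FC 0.05). Lrp4, the receptor for agrin on the muscle side, rose from 13.3, 16.1 and 20.6 to 40.0, 49.9 and 63.9 (log2 FC 1.56, adjusted p = 0.0042). Erbb2, a receptor tyrosine kinase for neuregulin signals, rose from 2.85, 1.77 and 7.34 to 9.38, 15.2 and 16.3 (log2 FC 1.68, adjusted p = 0.008). Ncam1, an adhesion molecule that spreads over the surface of inactive fibres, held 97.6, 282 and 419 against 32.9, 22.8 and 96.2 (log2 FC 2.41, adjusted p = 0.013, up to 0.068 with 1 limb left out, lost without recovery replicate 1 or 2 or repeated atrophy replicate 3). Hdac4, a histone deacetylase that carries the silencing signal to the nucleus, was also a DEG (log2 FC 1.74, adjusted p = 0.02, lost without the same 3 limbs, up to 0.1).

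The embryonic and adult alternatives of the receptor did not pass the test on this scale. Chrng, the fetal gamma subunit, stood at 33.9, 70.1 and 135 against 9.94, 5.02 and 27.7 (log2 FC 2.49, adjusted p = 0.058) and Chrne, the adult epsilon subunit, at 30.2, 24.7 and 36.4 against 22, 15.7 and 25.3 (log2 FC 0.52, adjusted p = 0.18). Both were called higher on the deposited scale, as was Musk, the kinase that organises the synapse (log2 FC 0.92, adjusted p = 0.094). Agrn, which encodes agrin, had a log2 FC of -0.09 and Dok7, an adaptor of Musk, of -0.39.

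Ache, the acetylcholinesterase that ends transmission, fell. It stood at 3.25, 0.694 and 2.68 in repeated atrophy and at 52.9, 54.7 and 45.4 in recovery, a 17.4-fold difference (log2 FC -4.12, SE 0.77, adjusted p = 0.0021). The right limbs held 31.7, 45 and 82.1 in repeated atrophy animals and 82.5, 91.1 and 75.8 in recovery animals. All 3 repeated atrophy limbs thus lay below every right limb, of which the lowest of the 9 held 11. The left limbs of the sham-operated animals, which had no TTX, ranged more widely, from 4.01 to 58.9. Each comparison was also refitted without 1 of the 6 left limbs at a time; where a call was then lost, the limbs concerned and the highest adjusted p over those fits are given. The other 2 downregulated members were Hdac9, a class IIa deacetylase (log2 FC -1.33, adjusted p = 0.025, kept only without repeated atrophy replicate 3, up to 0.086), and Etv5, an ETS factor of synaptic nuclei (log2 FC -0.94, adjusted p = 0.017, not called on the deposited scale, lost without repeated atrophy replicate 1 or recovery replicate 1 or 2, up to 0.071). With recovery replicate 1 or 2 left out, 1 member of the list was downregulated.

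Among 15 tested myogenic and fusion factors, 6 were upregulated and 0 downregulated (median log2 FC 0.80, 0.34 within animals; 3 were called without repeated atrophy replicate 2, recovery replicate 1 or recovery replicate 2). Myog, myogenin, stood at 609.9, 412 and 328 in repeated atrophy against 37.1, 24.8 and 123 in recovery (log2 FC 3.14, SE 0.62, adjusted p = 0.0028). Myod1, another E-box factor of the muscle lineage, stood at 136, 166 and 142 against 72.6, 49.4 and 58.8 (log2 FC 1.30, SE 0.31, adjusted p = 0.0082), and the right limbs of the 2 sets of animals overlapped for it (log2 FC 0.10). Id3, an inhibitor of E-box factors, rose as well, from 17.2, 16.9 and 14.7 to 39.8, 31.7 and 28.5 (log2 FC 0.98, adjusted p = 0.0087). These 3 genes did not overlap between the groups. Within animals the log2 FC was 1.99 and 1.2 for Myog and Myod1 (unadjusted p = 0.024 and 0.008). Mymk, the fusion protein myomaker, held 33.5, 149 and 117 against 11, 6.6 and 21.4 (log2 FC 2.74, adjusted p = 0.048), Myf6 held 566, 522 and 451 against 265, 248 and 345 (log2 FC 0.85, adjusted p = 0.045) and Mef2a held 37.2, 58.7 and 57.4 against 20.2, 29.1 and 35.9 (log2 FC 0.83, adjusted p = 0.024). With 1 limb left out, Mymk was kept only without repeated atrophy replicate 1, up to 0.16, Myf6 was kept only without recovery replicate 3, up to 0.14 and Mef2a was kept only without repeated atrophy replicate 1 or recovery replicate 3, up to 0.13. Myf5 did not pass (log2 FC 1.56, adjusted p = 0.061), and Pax7, the factor of quiescent satellite cells, was near 1 CPM or below in every limb (log2 FC -0.06).

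**Figure D2:**
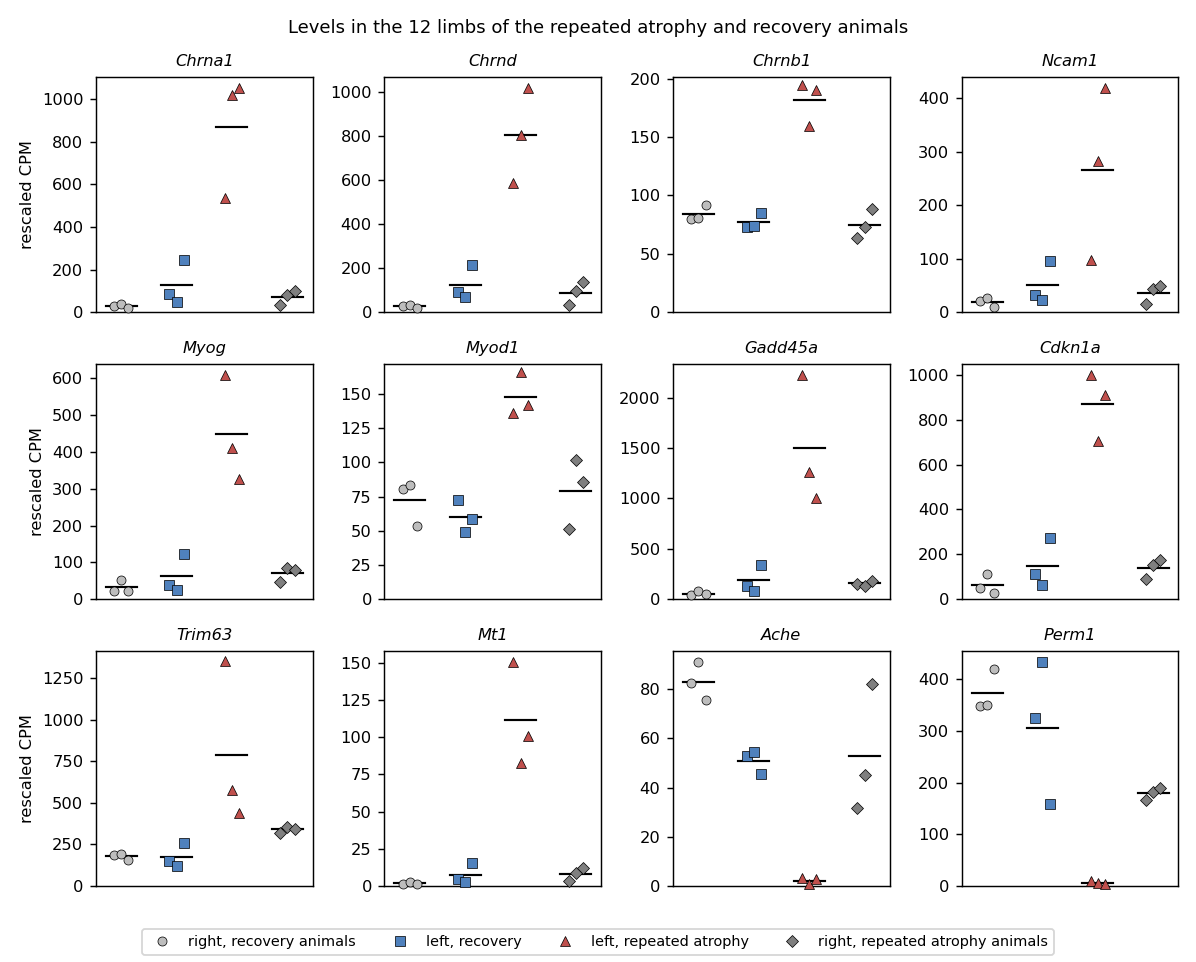
Rescaled CPM (linear axes starting at 0) of 12 genes in the 12 limbs of the repeated atrophy and recovery animals; symbols are single limbs and bars are means of 3. Receptor subunits, Myog, Gadd45a, Cdkn1a, Trim63 and Mt1 are highest in the repeated atrophy left limbs, Ache and Perm1 are lowest there, and in every gene but Myod1 the recovery left limb nearest to the repeated atrophy left limbs is replicate 3.

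Gadd45a and Cdkn1a, growth arrest genes that inactive muscle is known to induce, were upregulated. Gadd45a held 2224, 1263 and 1006 in repeated atrophy and 134, 83.7 and 341 in recovery (log2 FC 3.17, SE 0.65, adjusted p = 0.0037; right limb log2 FC 1.53). Cdkn1a, the cyclin-dependent kinase inhibitor p21, held 1000.0, 703 and 909 and 112, 61.2 and 272 (log2 FC 2.79, SE 0.63, adjusted p = 0.0057; right limb log2 FC 1.29). Within animals the log2 FC was 1.64 and 1.5 for Gadd45a and Cdkn1a (unadjusted p = 0.052 and 0.11). Of the 19 tested genes of the p53, p21 and Gadd45 list, 4 were upregulated and 2 downregulated (median log2 FC 0.31, 0.67 on the deposited scale, 0.12 without repeated atrophy replicate 1, 0.21 without recovery replicate 1, 0.36 within animals; 8 were called higher on the deposited scale). The upregulated share was above the 10.2% of all rows, while the downregulated share was near the 11.4% of all rows. Btg2, an antiproliferative factor, rose (log2 FC 1.88, adjusted p = 0.01, 0.059 without repeated atrophy replicate 1), as did Tp53inp1 at low level (log2 FC 1.17, adjusted p = 0.027, kept only without repeated atrophy replicate 1, up to 0.083). The downregulated members were Gadd45g, a paralog of Gadd45a, with 7.13, 3.02 and 3.78 against 24.3, 34.6 and 39.8 (log2 FC -2.63, adjusted p = 0.0094), and Tp53inp2, a regulator of autophagy (log2 FC -1.12, adjusted p = 0.015, up to 0.068 and lost without recovery replicate 1 or 2; with either left out, Gadd45g was the 1 downregulated member). Mdm2, the ubiquitin ligase of p53, had a log2 FC of 0.08.

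The atrogene list held 24 tested ubiquitin ligases and FoxO-related genes, of which 6 were upregulated and 1 downregulated (median log2 FC 0.35, 0.66 on the deposited scale, 0.30 within animals). Trim63, which encodes the muscle ligase MuRF1, stood at 1354, 577 and 439 in repeated atrophy and 148, 119.7 and 256 in recovery (log2 FC 2.07, SE 0.69, adjusted p = 0.04). Fbxo32, which encodes atrogin-1, stood at 27.7, 30.2 and 30.3 and 4.41, 3.06 and 11.1 (log2 FC 2.24, SE 0.77, adjusted p = 0.046). Neither gene overlapped between the groups, yet the calls did not hold without single limbs: Trim63 was kept only without repeated atrophy replicate 3 or recovery replicate 3, up to 0.17, and Fbxo32 was kept only without recovery replicate 3, up to 0.16. Fbxo32 also leaned upwards in the right limbs, 17.5, 28.9 and 15.4 against 6.93, 6.41 and 2.88 (log2 FC 1.77), and its within-animal log2 FC was 0.46, against 1.15 for Trim63. Ligases that kept their call were Fbxo31, with 408, 281 and 384 against 71.7, 57.7 and 106 (log2 FC 2.20, adjusted p = 0.0035), and Trim54, a relative of Trim63, with 799.5, 517 and 623 against 285, 295 and 309 (log2 FC 1.1, adjusted p = 0.0016). Nedd4 rose (log2 FC 0.84, adjusted p = 0.012) while its relative Nedd4l fell (log2 FC -1.17, adjusted p = 0.0024). Nedd4 was lost without recovery replicate 1 or 2 (up to 0.057), and Asb2 (log2 FC 0.94, adjusted p = 0.044) was kept only without repeated atrophy replicate 2, up to 0.14. Foxo1 and Foxo3, transcription factors upstream of atrogenes, were not called (log2 FC 0.26 and 0.38). Without repeated atrophy replicate 1, 3 members were upregulated, and without recovery replicate 1 or 2, 2 were.

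Of 40 tested proteasome subunits and assembly factors, 23 were upregulated and 0 downregulated, and the 3 repeated atrophy limbs lay above the 3 recovery limbs in 31 of them. The median log2 FC was 0.77, 0.49 without repeated atrophy replicate 1, against 0.21 in the right limbs and 0.55 within animals, and 10 members (25%, against 18.1% of all rows) had a within-animal unadjusted p under 0.05. Psmb3, a subunit of the catalytic core, held 219, 114 and 133 against 64.8, 54.4 and 66.7 (log2 FC 1.26, adjusted p = 0.0027). Psmd2, of the regulatory particle, held 775, 550.1 and 699.9 against 252, 229.6 and 329 (log2 FC 1.32, adjusted p = 0.011). Psmd8 had the largest log2 FC of the list, 1.37 (adjusted p = 0.017, up to 0.098 and lost without repeated atrophy replicate 1 or recovery replicate 1 or 2), and Psme1, a subunit of the activator linked to immune proteasomes, was the lowest at -0.31 (adjusted p = 0.26). Repeated atrophy replicate 1 carried the highest proteasome level, 0.94 (log2) above the mean of the 9 right limbs against 0.29 and 0.27 in replicates 2 and 3. Without it, 5 members were upregulated, without recovery replicate 2, 7, and without recovery replicate 1, 13.

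Among autophagy and lysosome genes, 13 of 35 were upregulated and 2 downregulated (median log2 FC 0.54, 0.90 on the deposited scale, 0.40 within animals; 24 upregulated on the deposited scale, 8 without repeated atrophy replicate 1 or recovery replicate 1, 7 without recovery replicate 2). Ctsl, a lysosomal protease, held 1253, 944 and 706 in repeated atrophy and 150.4, 96.3 and 260.3 in recovery (log2 FC 2.59, SE 0.60, adjusted p = 0.0069), and its right limbs were apart too, 318, 297 and 255 against 98.6, 109 and 90.9 (log2 FC 1.53; within-animal log2 FC 1.06). Sqstm1, the cargo receptor p62, held 2359, 1295 and 1554 against 495, 379.6 and 608 (log2 FC 1.79, adjusted p = 0.0035), and Map1lc3b, a protein of the autophagosome membrane, held 575, 436 and 409 against 166, 165 and 185 (log2 FC 1.44, adjusted p = 0.0099). Gabarapl1, of the same family, missed the threshold (log2 FC 1.17, adjusted p = 0.055). The members that fell were Ctss, a protease abundant in macrophages (log2 FC -1.17, adjusted p = 0.0018), and Ulk2, a kinase that starts autophagy (log2 FC -0.63, adjusted p = 0.036, not called on the deposited scale and kept only without repeated atrophy replicate 2, up to 0.11); 1 member was downregulated in each of these fits but that without repeated atrophy replicate 2.

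Heat shock proteins and chaperones showed 14 upregulated and 2 downregulated members of 27 (median log2 FC 0.55, 0.92 on the deposited scale, 0.49 within animals; 8 upregulated without repeated atrophy replicate 1, 9 without recovery replicate 1 or 2). The small heat shock protein Cryab, which binds desmin and other filaments, held 6288, 2761 and 2342 against 794, 679 and 866 (log2 FC 2.15, SE 0.36, adjusted p = 0.0012; within-animal log2 FC 1.91). Hspb8 held 4131, 2439.6 and 2663 against 897, 798 and 1164 (log2 FC 1.67, adjusted p = 0.0019) and Hspb1 held 484, 237 and 229 against 132, 125 and 135 (log2 FC 1.18, adjusted p = 0.0099, 0.057 without repeated atrophy replicate 1). Hspb6, of the same family, went the other way, with 945, 581 and 392 against 2917, 4203 and 2162 (log2 FC -2.31, SE 0.31, adjusted p = 0.00037). The recovery limbs held more Hspb6 than any of the 9 right limbs, which ranged from 824 to 1436, and 2 of the 3 repeated atrophy limbs less. Hspd1, the mitochondrial chaperonin, was the other downregulated member (log2 FC -0.84, adjusted p = 0.024, not called on the deposited scale, lost without repeated atrophy replicate 3 or recovery replicate 1 or 2, up to 0.1). Of the cytosolic chaperonin, 6 subunits (Cct2, Cct3, Cct4, Cct5, Cct6a and Cct7) were among those upregulated.

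Perm1, a muscle regulator of mitochondrial genes that responds to contraction, showed the largest fall of any gene on this scale (chromosome 5, 166800030 to 166805324, rn7). It stood at 9.34, 5.52 and 3.48 in repeated atrophy and 325, 434 and 159 in recovery, a 42.2-fold difference (log2 FC -5.40, SE 0.65, adjusted p = 0.00021). In the right limbs it held 166, 182 and 189.6 in repeated atrophy animals and 348, 350.3 and 421 in recovery animals, which did not overlap either (log2 FC -1.05), and within animals the log2 FC was -4.35 (unadjusted p = 0.00055). Its mean after the first silencing was 44 (standard deviation 35.8), between the 2 groups. Ppargc1a, which encodes PGC-1alpha, stood at 0.721, 1.05 and 1.49 against 7.42, 6.75 and 3.65 (log2 FC -1.70, SE 0.36, adjusted p = 0.004).

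Over the whole list of the PGC-1 axis and activity-regulated regulators, 2 of 28 genes were upregulated and 7 downregulated (median log2 FC -0.25, -0.02 on the deposited scale, -0.09 with quantile normalization, -0.38 without repeated atrophy replicate 1, -0.42 without recovery replicate 2, -0.27 within animals; 1 upregulated without repeated atrophy replicate 1). Besides Perm1 and Ppargc1a, Nr4a1, an orphan receptor induced by contraction, fell from 132, 159 and 106 to 39.2, 17.8 and 24.8 (log2 FC -2.29, adjusted p = 0.0064) and Nfil3, a basic leucine zipper repressor, from 29.5, 29.6 and 19.4 to 4.65, 3.97 and 3.51 (log2 FC -2.41, adjusted p = 0.0044). Nfatc1, the calcineurin-dependent factor of slow fibres, fell (log2 FC -1.15, adjusted p = 0.0032), as did the angiogenic factors Apln (log2 FC -2.09, adjusted p = 0.027, kept only without repeated atrophy replicate 3 or recovery replicate 3, up to 0.12) and Vegfa (log2 FC -0.92, adjusted p = 0.035, kept only without recovery replicate 3, up to 0.15, and not called on the deposited scale). Rcan1, a feedback inhibitor of calcineurin, rose from 99.8, 101 and 119.6 to 829, 395 and 281 (log2 FC 2.07, adjusted p = 0.0012), with its right limbs close together (log2 FC 0.18). Myl12a, a light chain of non-muscle myosin, was the other upregulated member. With 1 upregulated member left without repeated atrophy replicate 1, Rcan1 and Myl12a did not both keep their call in that fit. Tfam, the packaging factor of mitochondrial DNA, had a log2 FC of 0.16 (adjusted p = 0.61), and Mss51, an activity-dependent mitochondrial gene, of -1.71 (adjusted p = 0.082).

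Glycolysis and glycogen genes had a median log2 FC of -1.61 (-1.27 within animals) and 18 of 30 members downregulated against 1 upregulated. Leaving out any 1 limb gave 16 to 18 downregulated members, and the deposited scale gave 18. Fbp2, the muscle fructose-1,6-bisphosphatase, stood at 2.93, 1.8 and 2.26 in repeated atrophy and 139.7, 142 and 59 in recovery (log2 FC -5.01, SE 0.93, adjusted p = 0.0021; within-animal log2 FC -4.10). Gpd1, glycerol-3-phosphate dehydrogenase, stood at 70.1, 60.7 and 83.4 and 1116, 1238 and 703 (log2 FC -3.79, adjusted p = 0.0034). Both ranges were far apart. Pfkfb1, which makes the allosteric activator of phosphofructokinase, fell (log2 FC -3.39, adjusted p = 0.0012), as did Eno3, muscle enolase, from 14121, 14999 and 9469.5 to 2503, 1288 and 1326 (log2 FC -2.96, adjusted p = 0.003), and Pkm, pyruvate kinase, from 3858, 4081 and 2449.8 to 616, 373 and 498 (log2 FC -2.80, adjusted p = 0.0024). Pygm, glycogen phosphorylase, passed (log2 FC -1.68, adjusted p = 0.035) but was kept only without recovery replicate 3, up to 0.11, and Aldoa and Gapdh did not pass (log2 FC -1.55 and -0.94, adjusted p = 0.072 and 0.25).

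At the entry of glucose into the fibre the directions diverged. Slc2a4, the insulin-responsive transporter GLUT4, fell from 501, 601 and 441 to 291, 261 and 257 (log2 FC -0.92, adjusted p = 0.012, 0.06 without recovery replicate 2). Hk2, the hexokinase that phosphorylates the glucose, was the upregulated member, with 156, 179 and 213 against 57.7, 72.1 and 88.1 and no overlap (log2 FC 1.33, SE 0.33, adjusted p = 0.0095; right limb log2 FC 0.16; within-animal log2 FC 1.17, unadjusted p = 0.002).

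Genes of the TCA cycle and of pyruvate entry were downregulated in 19 of 26 cases and upregulated in 0 (median log2 FC -1.30, -0.84 within animals; 12 without recovery replicate 1). Idh2, the mitochondrial NADP-dependent isocitrate dehydrogenase, stood at 249, 159.7 and 175 against 1196, 1274 and 706 (log2 FC -2.42, SE 0.36, adjusted p = 0.00069). Mdh1, the cytosolic malate dehydrogenase, fell from 549, 631 and 310.0 to 106, 127 and 97.5 (log2 FC -2.11, adjusted p = 0.0019) and Cs, citrate synthase, from 570.0, 628 and 416 to 203, 214 and 248 (log2 FC -1.26, adjusted p = 0.005). Dlat, a core subunit of pyruvate dehydrogenase, had a log2 FC of -1.77 (adjusted p = 0.0018). Pdk4, the kinase that shuts this enzyme, overlapped between the groups (23.9, 51.9 and 47.8 against 56.8, 56.8 and 28.2, log2 FC -0.20).

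In the respiratory chain, 20 of 35 complex I subunits and 26 of 42 subunits of complexes II to V were downregulated and 0 upregulated, with median log2 FC of -0.92 and -1.06 (-0.55 and -0.69 on the deposited scale). On the deposited scale 15 and 17 were downregulated. Ndufs1, the largest subunit of complex I, stood at 253, 305 and 258 in repeated atrophy and 1212, 1226 and 756 in recovery (log2 FC -1.94, SE 0.39, adjusted p = 0.0032). Cycs, cytochrome c, stood at 412, 426 and 220.2 against 1936, 2062 and 1006 (log2 FC -2.23, adjusted p = 0.0029), and Sdhc of complex II at 208, 179.9 and 159.6 against 675, 703 and 426 (log2 FC -1.69, adjusted p = 0.0023). In each of these genes recovery replicate 3 was the lowest of its group. At the other end, Ndufa7 and Cox8a had the smallest differences of their lists (log2 FC -0.16 and -0.31). The right limbs leaned the same way, with median log2 FC of -0.52 and -0.51, and the medians within animals were -0.45 and -0.61, with 6 and 15 members at an unadjusted p under 0.05 (17.1% and 35.7%, against 18.1% of all rows). The counts depended on single limbs. For complex I there were 5 downregulated members without recovery replicate 1 or 2, 11 without repeated atrophy replicate 2 and 9 without repeated atrophy replicate 3. For complexes II to V there were 11 without recovery replicate 1, 15 without recovery replicate 2 or repeated atrophy replicate 3, and 17 without repeated atrophy replicate 2.

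**Figure D3:**
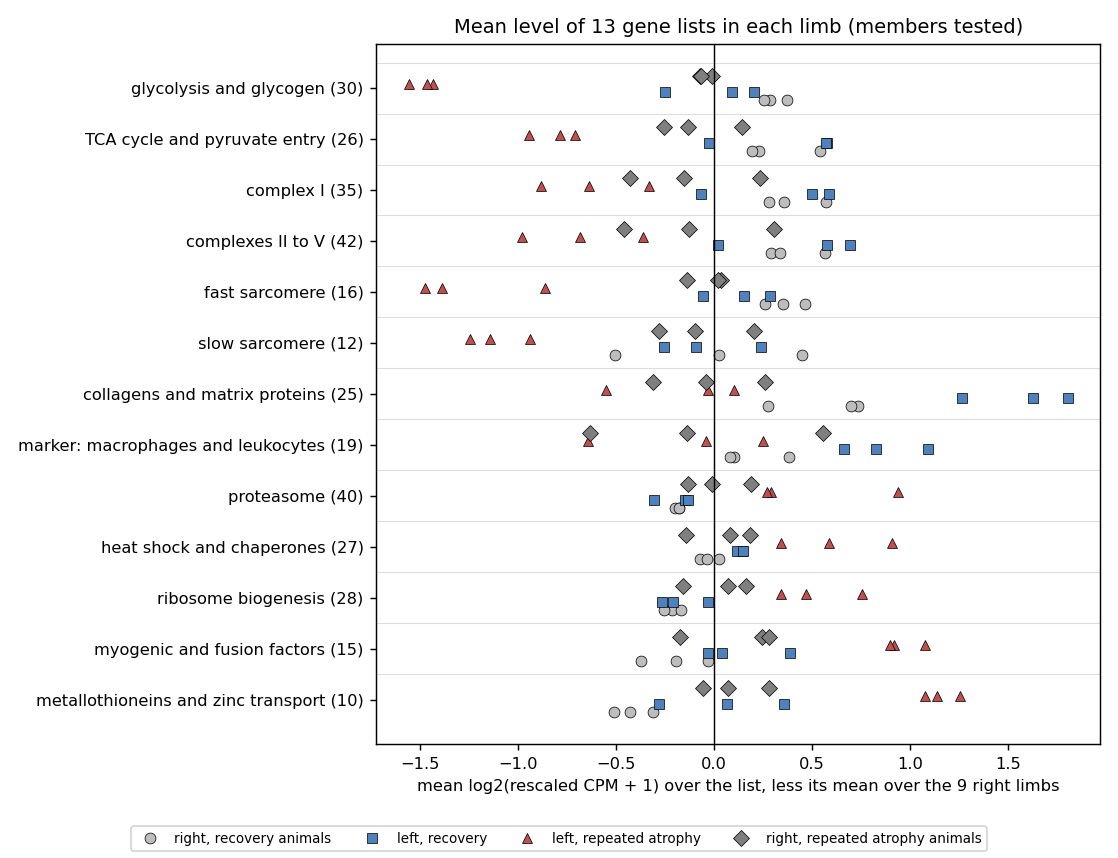
Mean of log2(rescaled CPM + 1) over the members of 13 lists in each of 12 limbs, less the mean of the 9 right limbs (vertical line at 0); symbols are single limbs. Repeated atrophy left limbs lie lowest in glycolysis, TCA cycle and sarcomere lists and highest in myogenic, metallothionein and chaperone lists, recovery left limbs lie highest in collagens and macrophage markers, and recovery replicate 3 lies nearest to the repeated atrophy limbs in complex I (-0.07 against 0.59 and 0.50 in the other two recovery limbs, and -0.33, -0.64 and -0.89 in the repeated atrophy limbs).

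Fatty acid uptake and oxidation was mixed, with 9 of 30 genes downregulated and 1 upregulated (median log2 FC -0.46, -0.10 on the deposited scale, -0.30 without recovery replicate 1, -0.37 within animals; 4 downregulated on the deposited scale, and 4, 5 and 5 without recovery replicate 1, recovery replicate 2 and repeated atrophy replicate 3). Hadh, a dehydrogenase of the oxidation spiral, stood at 39.2, 33 and 33 against 309.6, 304 and 132 (log2 FC -2.69, adjusted p = 0.0012) and Acadm, the medium-chain acyl-CoA dehydrogenase, at 406, 372 and 264 against 1445, 1421 and 724 (log2 FC -1.74, adjusted p = 0.0018). Ucp3, an uncoupling protein of muscle that responds to fatty acids, was the upregulated member, with 438, 449 and 437 against 144, 98.2 and 69.8 (log2 FC 2.14, adjusted p = 0.042). Its call was lost whichever limb was left out, up to 0.12, and its right limbs ranged over 256, 148 and 76 and 52.4, 50.4 and 86.7. Cpt1b, the gate of long-chain fatty acid entry into mitochondria, and Angptl4 were not called (log2 FC 0.23 and 1.66). G0s2, an inhibitor of the lipase that opens triglyceride stores, lay outside these lists and stood at 0.842, 2.66 and 0.864 against 105, 139 and 48.4 (log2 FC -5.28, SE 1.08, adjusted p = 0.0034; within-animal log2 FC -4.15). In the left limbs of the sham-operated animals G0s2 ranged from 0.936 to 65.7.

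Downregulated contractile genes were found in both fibre programmes. Of 12 genes of the slow sarcomere, 6 were downregulated and 1 upregulated (median log2 FC -0.85, -0.48 on the deposited scale, -1.0 within animals), and of 16 genes of the fast sarcomere, 5 were downregulated and 0 upregulated (median log2 FC -1.39, -0.60 with quantile normalization, -0.78 within animals, with 14 whose repeated atrophy limbs lay below every recovery limb). Myl3, the slow essential light chain, stood at 67.3, 65 and 54.5 in repeated atrophy and 680.0, 927 and 353 in recovery (log2 FC -3.27, SE 0.35, adjusted p = 0.00013). Myh7, the slow myosin heavy chain, stood at 179, 292 and 409 against 873, 1423 and 968 (log2 FC -1.93, SE 0.42, adjusted p = 0.0047), and Tpm3, slow tropomyosin, at 75.2, 69.3 and 52.5 against 277, 282 and 182 (log2 FC -1.88, adjusted p = 0.00091). All repeated atrophy limbs of these 3 genes lay below the range of the 9 right limbs. The upregulated member, Smtnl2, had a log2 FC of 0.70 (adjusted p = 0.046), kept only without repeated atrophy replicate 2, up to 0.19.

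On the fast side, Mybpc2, the fast myosin-binding protein, stood at 2575, 974 and 1248 against 7581, 10050.0 and 6579.5 (log2 FC -2.44, adjusted p = 0.0072) and Casq1, the fast calsequestrin, at 1185, 846 and 886 against 4725, 5262 and 4108 (log2 FC -2.28, adjusted p = 0.0046). Myoz1, Mylk2 and Mylpf were also downregulated, with log2 FC of -1.94, -1.88 and -1.64 (adjusted p = 0.022, 0.023 and 0.046), but with 1 limb left out Myoz1 was kept only without repeated atrophy replicate 1 or recovery replicate 3, up to 0.08, Mylk2 was kept only without repeated atrophy replicate 3 or recovery replicate 3, up to 0.08 and Mylpf was lost whichever limb was left out, up to 0.13, so that 2 to 4 fast genes were downregulated in those fits, while other settings gave more: 8 among rows with a mean of at least 1 CPM and 11 at 10 CPM, 9 with robust hyperparameters and 10 without the trend. The adult fast myosin heavy chains did not pass: Myh4 of type IIB fibres stood at 39883, 27458 and 33167 against 55719, 52350.0 and 53304 (log2 FC -0.70, SE 1.00), Myh1 of type IIX at 26998, 13158 and 15295 against 36801, 63854 and 46730.0 (log2 FC -1.45, SE 0.88) and Myh2 of type IIA at 1896, 3576 and 2141 against 6384, 9495 and 4896 (log2 FC -1.45, adjusted p = 0.056). None of the 3 overlapped between the groups, and the standard errors at these levels were wide.

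Of 6 tested genes of the developmental sarcomere, 3 were downregulated and 1 upregulated (2 downregulated without repeated atrophy replicate 1). Actc1, cardiac actin, which regenerating and immature fibres express, stood at 23.6, 71.9 and 91.1 in repeated atrophy and 601, 685 and 369.6 in recovery (log2 FC -3.29, SE 0.70, adjusted p = 0.0044). Myh8, the perinatal myosin, stood at 46.7, 97.3 and 81.8 against 285, 229.9 and 237 (log2 FC -1.78, adjusted p = 0.011, 0.058 without repeated atrophy replicate 1), and Myl4, the embryonic light chain, at 30.1, 19.3 and 16.7 against 55, 45.3 and 69.8 (log2 FC -1.35, adjusted p = 0.0028). The recovery limbs held more of all 3 than any of the 9 right limbs. Myh3, the embryonic myosin, was high in both groups and did not differ beyond its spread (96, 150.3 and 234 against 107, 179 and 242, log2 FC -0.15, SE 0.90). Mybph went up, from 296, 245 and 396 to 1438, 757 and 936 (log2 FC 1.71, adjusted p = 0.0053), with right limbs that leaned the other way (log2 FC -0.49). Reads of near-identical genes such as the actins, tubulins and myosins may have been split between them in a way the sources used here do not give.

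Calcium handling and membrane excitability genes showed 11 downregulated and 5 upregulated members of 27 (median log2 FC -0.58, -0.21 on the deposited scale, -0.42 within animals; 7 downregulated without repeated atrophy replicate 2 or recovery replicate 2). Scn4a, the adult muscle sodium channel, overlapped between the groups (log2 FC 0.34), while its partner Scn4b fell from 607, 728 and 506 to 117, 89 and 127 (log2 FC -2.45, SE 0.39, adjusted p = 0.00091).

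Of the potassium channels on that list, Kcnn3, the SK3 channel known from denervated fibres, rose from 12.2, 10.2 and 23.2 to 87, 85 and 102 (log2 FC 2.59, SE 0.38, adjusted p = 0.00066), and Kcna7 fell from 162, 215 and 159 to 18.1, 18.5 and 25.3 (log2 FC -3.06, SE 0.52, adjusted p = 0.0013). Their right limb log2 FC were 0.52 and 0.19, and their within-animal log2 FC 2.07 and -3.25 (unadjusted p = 0.00059 and 0.0013). At the triad, where the calcium release channel sits, Cacnb1, the beta subunit of the voltage sensor, rose (log2 FC 1.49, adjusted p = 0.00068) together with Jsrp1 (log2 FC 1.09, adjusted p = 0.0024). Jph2, a junctophilin, fell (log2 FC -2.70, adjusted p = 0.016, lost without repeated atrophy replicate 1 or 2 or recovery replicate 2, up to 0.069). In the sarcoplasmic reticulum, Casq2, Srl (sarcalumenin) and Dhrs7c fell (log2 FC -2.65, -1.74 and -3.98, adjusted p = 0.00091, 0.0026 and 0.0021), and Sln, the sarcolipin that inhibits the calcium pump, rose (log2 FC 1.94, adjusted p = 0.035, kept only without repeated atrophy replicate 3 or recovery replicate 3, up to 0.13). Aqp4, the water channel of fast fibres, stood at 3.58, 0.167 and 0.162 against 72.5, 83.6 and 20.1 (log2 FC -4.79, SE 1.08, adjusted p = 0.006), with no lean in the right limbs (log2 FC -0.03).

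Ankyrin repeat and mechanosensing genes, most of them at the Z-disc, split into 6 upregulated and 3 downregulated of 18 (median log2 FC 0.28, 0.65 on the deposited scale, 0.04 without recovery replicate 1, 0.49 without recovery replicate 3, 0.07 within animals, 0.27 in the right limbs; 3 upregulated without recovery replicate 1, and 4 without recovery replicate 2 or repeated atrophy replicate 1). Ankrd1, a stress-responsive titin partner, stood at 11596, 4139 and 3278 in repeated atrophy against 384, 283 and 1114 in recovery (log2 FC 3.44, SE 0.99, adjusted p = 0.021). The right limbs were apart in the same way, 512, 598 and 374 against 58.9, 163 and 52.8 (log2 FC 2.59), the within-animal log2 FC was 0.86 (unadjusted p = 0.38), and the call was lost without repeated atrophy replicate 1 or recovery replicate 1 or 2 (up to 0.093). Pdlim3, an actinin-binding protein, rose from 851, 854 and 988 to 5358, 3015 and 2156 (log2 FC 1.87, adjusted p = 0.0046) and Ankrd23 from 1293, 1777 and 1791 to 4301, 3029.5 and 3797 (log2 FC 1.2, adjusted p = 0.0077). Csrp3 and Flnc rose as well (log2 FC 1.97 and 1.37, adjusted p = 0.034 and 0.017), Csrp3 kept only without repeated atrophy replicate 3 or recovery replicate 3, up to 0.11 and Flnc lost without repeated atrophy replicate 3 or recovery replicate 1, up to 0.074, and Ankrd2 overlapped between the groups (77.7, 32.8 and 8.72 against 30.9, 35.8 and 25.5, log2 FC -0.09). The members that fell were Lmcd1 (log2 FC -2.61, adjusted p = 0.00016), Fhl3 (log2 FC -1.88, adjusted p = 0.0021) and Xirp2 (log2 FC -0.99, adjusted p = 0.031, not called on the deposited scale, kept only without repeated atrophy replicate 2 or recovery replicate 1, up to 0.14). Ldb3, a Z-disc scaffold, fell from 1577, 2442 and 1474 to 262, 275 and 199 (log2 FC -2.87, SE 0.36, adjusted p = 0.00024).

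The metallothionein genes Mt1 and Mt2A, which encode small proteins that bind zinc and copper, rose from low levels. Mt1 (chromosome 19, 10826032 to 10827049, rn7) stood at 150.4, 82.3 and 101 in repeated atrophy and 4.97, 2.44 and 15.1 in recovery (log2 FC 3.98, SE 0.68, adjusted p = 0.0014). Mt2A, its neighbour at 10832009 to 10832784, stood at 213, 152 and 116 against 8.04, 4.64 and 28.8 (log2 FC 3.77, SE 0.83, adjusted p = 0.0051). Slc30a2, a transporter that moves zinc out of the cytosol, stood at 177, 77.7 and 48.3 against 4.22, 2.26 and 9.24 (log2 FC 3.99, SE 1.05, adjusted p = 0.014, lost without repeated atrophy replicate 1, 0.06, or recovery replicate 2). None of the 3 overlapped between the groups, and in each the right limbs of repeated atrophy animals also lay above those of recovery animals, with log2 FC of 1.66, 1.73 and 1.77 and within-animal log2 FC of 2.32, 2.03 and 2.21. Over the list, 3 of 10 genes were upregulated and 1, Mt3, a little expressed relative, was downregulated (log2 FC -0.71, adjusted p = 0.046, not called on the deposited scale, kept only without recovery replicate 3, up to 0.19). The highest right limb for Slc30a2, at 171, came from an animal killed after the first silencing and stood apart from the others. The highest left limb of the sham-operated animals held 38.4 for Mt1, 153 for Mt2A and 80.3 for Slc30a2. Slc30a4, another zinc transporter, missed the threshold (log2 FC 0.74, adjusted p = 0.059).

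Since metal response elements in promoters are the known route by which zinc induces these genes, the stretches before the starts of Mt1, Mt2A and Slc30a2 are shown (RefSeq, GRCr8, gene strand, minus for both metallothioneins and plus for Slc30a2, whose upstream start is taken). Capitals mark matches to the core TGCGCNC or TGCACNC on either strand, read on the other strand as GNGCGCA or GNGTGCA.
Mt1, chr19:10832976-10833175: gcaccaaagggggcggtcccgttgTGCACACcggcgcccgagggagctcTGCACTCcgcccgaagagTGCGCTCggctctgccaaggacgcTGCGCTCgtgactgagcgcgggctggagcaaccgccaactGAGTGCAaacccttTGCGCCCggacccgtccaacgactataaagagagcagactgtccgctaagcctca
Mt2A, chr19:10838709-10838958: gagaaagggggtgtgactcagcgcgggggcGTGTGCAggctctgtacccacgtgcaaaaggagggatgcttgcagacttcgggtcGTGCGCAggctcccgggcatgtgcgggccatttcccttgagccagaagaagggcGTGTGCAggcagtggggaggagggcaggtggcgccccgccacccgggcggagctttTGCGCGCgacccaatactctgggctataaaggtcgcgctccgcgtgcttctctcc
Slc30a2, chr5:151843321-151843450: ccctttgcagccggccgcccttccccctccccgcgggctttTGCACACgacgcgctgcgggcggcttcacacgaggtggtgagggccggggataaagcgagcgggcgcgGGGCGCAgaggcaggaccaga
In 250 bases, Mt1 held 6 matches, Mt2A 4 and Slc30a2 2 at this start and 0 at its other start. At least 1 match was found in 20.6% of the 33465 promoters and at least 3 in 1.17%. The letters describe the windows only, and no binding or metal level was measured.

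The machinery that makes ribosomes was upregulated in 12 of 28 tested genes and downregulated in 0 (median log2 FC 0.60, 0.97 on the deposited scale, 0.37 within animals; 22 upregulated on the deposited scale, 4 without repeated atrophy replicate 1 or recovery replicate 1 or 2, and 8 without repeated atrophy replicate 2 or recovery replicate 3). Polr1a, the largest subunit of RNA polymerase I, which transcribes ribosomal RNA, stood at 281, 459 and 488 in repeated atrophy and 26.1, 29.4 and 54 in recovery (log2 FC 3.48, SE 0.60, adjusted p = 0.0014; chromosome 4, 103950051 to 104014015, rn7). Within animals its log2 FC was 2.57 (unadjusted p = 8e-05, adjusted p = 0.058), just over the threshold. Bop1, a processing factor of the large subunit, rose from 17.5, 19.1 and 23.4 to 46.8, 41.5 and 60.4 (log2 FC 1.26, adjusted p = 0.0085) with right limbs that leaned slightly the other way (log2 FC -0.27). Mybbp1a rose (log2 FC 1.21, adjusted p = 0.0092), and Myc, a driver of this programme, passed (log2 FC 1.48, adjusted p = 0.048) but was lost whichever limb was left out, up to 0.18. Ubtf, a partner of the polymerase, did not pass (log2 FC 0.16).

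Among 76 cytosolic ribosomal proteins, 20 were upregulated and 1 downregulated (median log2 FC 0.46, 0.83 on the deposited scale, 0.29 within animals), while 54 were called higher on the deposited scale and 8, 10 and 8 without repeated atrophy replicate 1, recovery replicate 1 and recovery replicate 2. The exception was Rpl3l, the muscle-specific form of the ribosomal protein L3. Rpl3l fell from 586, 594 and 386 to 163, 108 and 115 (log2 FC -2.01, SE 0.36, adjusted p = 0.0018), while Rpl3, the general form, rose from 147, 106 and 243 to 615, 624 and 576 (log2 FC 1.95, SE 0.41, adjusted p = 0.004). Rpl3 had the largest rise of the list. Next stood Rpl10 (log2 FC 1.26, adjusted p = 0.0031). Ribosomal proteins have many processed pseudogenes, and how reads shared with them were counted is not given in the sources used here.

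Of 25 tested collagens and matrix proteins, 21 were downregulated and 0 upregulated (median log2 FC -1.52, -1.06 within animals, where 20 had an unadjusted p under 0.05 (80%, against 18.1% of all rows); 15 downregulated on the deposited scale, and 13 and 14 without repeated atrophy replicate 1 and recovery replicate 1). Col3a1, the collagen of young matrix, stood at 51.1, 102 and 56.6 in repeated atrophy and 787, 506 and 927 in recovery (log2 FC -3.41, SE 0.68, adjusted p = 0.0029). Col1a1, of fibrillar collagen I, stood at 24.6, 47.1 and 39.1 against 357, 239.7 and 370.4 (log2 FC -3.11, SE 0.75, adjusted p = 0.0087). For both, the recovery limbs lay above all 9 right limbs, and the repeated atrophy limbs within their range of 25.1 to 188 and 11.8 to 139. Right limbs of repeated atrophy animals were also the lower ones, 17.5, 33.2 and 38.8 against 87.6, 139 and 87.3 for Col1a1 (log2 FC -1.81), and the list's right limb median was -0.52. Within animals the log2 FC was -1.30 and -1.88 for Col1a1 and Col3a1 (unadjusted p = 0.019 and 0.0024). Col14a1 and Postn, the latter a matrix protein of healing tissue, fell likewise (log2 FC -3.05 and -2.74, adjusted p = 0.0034 and 0.0058). Bgn, the proteoglycan biglycan, did not pass, with 158, 159.6 and 145 against 123, 102 and 186 (log2 FC 0.21, adjusted p = 0.82), both above the right limbs (20.3 to 49.2).

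Matrix proteases and inhibitors were downregulated in 7 of 18 cases and upregulated in 1 (median log2 FC -0.25, -0.10 on the deposited scale, -0.16 without repeated atrophy replicate 2, -0.37 without repeated atrophy replicate 3, -0.40 without recovery replicate 1, -0.38 within animals), with 1 downregulated on the deposited scale and 4, 3 and 4 without repeated atrophy replicate 1, recovery replicate 1 and recovery replicate 3. Mmp2, a gelatinase, fell (log2 FC -1.28, adjusted p = 0.012, not called on the deposited scale), and Adam19, a metalloprotease known from muscle development, rose (log2 FC 1.62, adjusted p = 0.012, lost without repeated atrophy replicate 1 or recovery replicate 2, up to 0.071).

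Of 10 markers of fibroblasts and fibro-adipogenic cells, 4 of them also in the matrix list, 8 were downregulated and 0 upregulated (median log2 FC -1.36, -1.06 within animals), and their summed level was 742 to 783 in repeated atrophy and 1652 to 2457 in recovery; with recovery replicate 1 left out, 5 were downregulated. Pdgfra, which defines fibro-adipogenic cells, did not pass (log2 FC -0.71, adjusted p = 0.062). Of 19 tested markers of macrophages and leukocytes, 13 were downregulated and 0 upregulated (median log2 FC -1.23, -0.95 within animals), with summed levels of 131 to 301 and 512 to 823. On the deposited scale 4 were downregulated, and 2, 5 and 5 without repeated atrophy replicate 1, recovery replicate 1 and recovery replicate 3. Adgre1, which encodes the macrophage antigen F4/80, stood at 0.681, 5.69 and 6.64 against 15.5, 9.86 and 17.8 (log2 FC -1.76, adjusted p = 0.02, lost without repeated atrophy replicate 1 or recovery replicate 1 or 3, up to 0.11, and on the deposited scale), and Ptprc, the leukocyte antigen CD45, did not pass (log2 FC -0.91, adjusted p = 0.13). The part of these cells in the collagen difference was not tested.

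For the remaining cell types, endothelium had 3 downregulated of 10 (median log2 FC -0.28, -0.35 within animals, 0.08 on the deposited scale; 0 without recovery replicate 1, and 1 without recovery replicate 2, repeated atrophy replicate 1 or repeated atrophy replicate 3), among them Kdr (log2 FC -0.82, adjusted p = 0.043, kept only without recovery replicate 3, up to 0.19, not called on the deposited scale) and not Pecam1 (log2 FC -0.34), and the deposited scale called 0 lower and 1 higher. Smooth muscle and pericytes had 1 of 8, Cspg4 (log2 FC -0.96, adjusted p = 0.04, not called on the deposited scale, kept only without recovery replicate 3, up to 0.15), adipocytes 1 of 7, Adipoq (log2 FC -1.98, adjusted p = 0.011, lost without repeated atrophy replicate 1 or recovery replicate 1, up to 0.063), and Schwann cells and satellite cells had 0 of 10 and 0 of 8 called in either direction (1 satellite cell marker was called higher on the deposited scale and without recovery replicate 3), with medians of -0.10 and -0.46. The Schwann cell median was 0.03 on the deposited scale, 0.03 with quantile normalization, -0.17 without repeated atrophy replicate 3 and -0.47 within animals, with the right limbs at 0.31, and the satellite cell median was -0.24 on the deposited scale and -0.37 within animals. Of these last lists, 2 Schwann cell and 2 satellite cell markers had a within-animal unadjusted p under 0.05 (20% and 25%, against 18.1% of all rows). Downregulated shares were 30% in endothelium, 12.5% in smooth muscle and pericytes and 14.3% in adipocytes, against 11.4% of all rows. Skeletal muscle fibre markers had 4 of 10 downregulated and 0 upregulated (median log2 FC -1.05, -0.68 on the deposited scale, -0.26 with quantile normalization, -0.84 within animals; 2 without repeated atrophy replicate 3 or recovery replicate 1 or 2), with summed levels of 50772 to 75441 in repeated atrophy and 92310 to 123210 in recovery, and Des, desmin, and Tcap, telethonin, overlapped between the groups (log2 FC 0.12 and 0.17). Proliferation genes had 7 downregulated of 24 (median log2 FC -0.45, -0.21 within animals, -1.38 with a pseudocount of 0.1 and -0.07 with one of 10; 1 without repeated atrophy replicate 1, and 3 or 4 without any other single limb, while the deposited scale called 4 lower and 3 higher). Ccnd1, cyclin D1, fell from 21.3, 28.6 and 18.2 to 4.53, 5.83 and 6.07 (log2 FC -1.86, adjusted p = 0.017, lost without repeated atrophy replicate 1 or recovery replicate 2, up to 0.07), with right limbs apart as well (log2 FC -1.17).

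Across all genes, 14 of the 15 largest rises with a mean of at least 10 in 1 group and no overlap between the limbs had log2 FC of at least 3.29, and the 15 largest falls of -3.91 or lower. All 29 were called on the deposited scale, 26 kept their call in all 6 fits with 1 limb left out and 26 had a within-animal unadjusted p under 0.05. These fits reuse the left limbs by which the 29 were chosen, so the counts describe and do not test them. The right limbs also stood apart in the same direction for 11 of the 14 rises (right limb log2 FC from 0.91 to 2.59) but for 8 of the 15 falls (-1.41 to 0.02). Beside genes already described, the rises held Adra1b, an alpha-1 adrenergic receptor, with 83.7, 42.7 and 52.7 against 1.73, 1.39 and 6.33 (log2 FC 4.01, adjusted p = 0.0023). Emb, the adhesion molecule embigin, stood at 311, 266 and 159 against 9.77, 6.7 and 45.4 (log2 FC 3.92, adjusted p = 0.0066), and Lmnb2, a B-type lamin, at 144, 95.9 and 122 against 7.03, 5.26 and 18.3 (log2 FC 3.60, adjusted p = 0.00091). Both lay above every right limb. Ampd3, an AMP deaminase that muscle induces on unloading and denervation, stood at 556, 259 and 258 against 22, 16.1 and 71.6 (log2 FC 3.45, adjusted p = 0.0081), above the highest right limb at 239, which was the limb that stood apart for Slc30a2. Gpnmb, a transmembrane glycoprotein, stood at 869.8, 813 and 616 against 47.7, 22.1 and 201 (log2 FC 3.64, adjusted p = 0.011, 0.062 without recovery replicate 2). The other rises were Krt8, a keratin, the adaptor Dok3, Aif1l and the acyl-CoA thioesterase Acot6 (log2 FC 3.36, 3.67, 3.32 and 3.29).

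Among the falls, several genes had recovery limbs above and repeated atrophy limbs below all right limbs. Atp1b4, a beta subunit relative of the sodium pump that is found in muscle nuclei, stood at 0.962, 2.5 and 1.01 in repeated atrophy and 58.4, 66.4 and 45.7 in recovery (log2 FC -4.57, SE 0.56, adjusted p = 0.00022), with the right limbs between 3.47 and 23.9. Itgb1bp2, the muscle chaperone melusin, stood at 6.25, 12 and 5.3 against 165, 178 and 143 (log2 FC -4.27, SE 0.47, adjusted p = 0.00014), with the right limbs between 14.6 and 96.9. Sh3kbp1, an adaptor of endocytosis, stood at 6.17, 11 and 8.28 against 176, 205 and 133 (log2 FC -4.19, adjusted p = 0.0004), again outside the right limbs on either side. The lowest left limb of the sham-operated animals held 1.73 for Atp1b4, 6.61 for Itgb1bp2 and 8.89 for Sh3kbp1. For these genes it thus lay among the repeated atrophy limbs, although it had no TTX. Tfrc, the transferrin receptor that takes up iron, fell from 328, 335 and 115 to 14.1, 17.5 and 12.4 (log2 FC -3.91, adjusted p = 0.00091), with 37, 27.4 and 41.2 and 71.9, 78.4 and 147 in the right limbs. Ky, a Z-disc protein needed for muscle growth, fell from 567, 461 and 294 to 12.1, 8.79 and 60.4 (log2 FC -4.42, adjusted p = 0.0032), and Mlf1 from 536, 529 and 350.3 to 21.1, 22.6 and 18.5 (log2 FC -4.42, adjusted p = 0.00091). Ddit4l2, a relative of the mTORC1 inhibitor Ddit4, had limbs close to each other in both groups, 3.49, 2.89 and 2.86 against 92.9, 88.7 and 63.5 (log2 FC -4.33, SE 0.53, adjusted p = 0.00022), and a right limb log2 FC of 0.02. The remaining falls were Cmbl, a hydrolase, and Lgi3, a secreted protein (log2 FC -4.32 and -4.0).

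**Figure D4:**
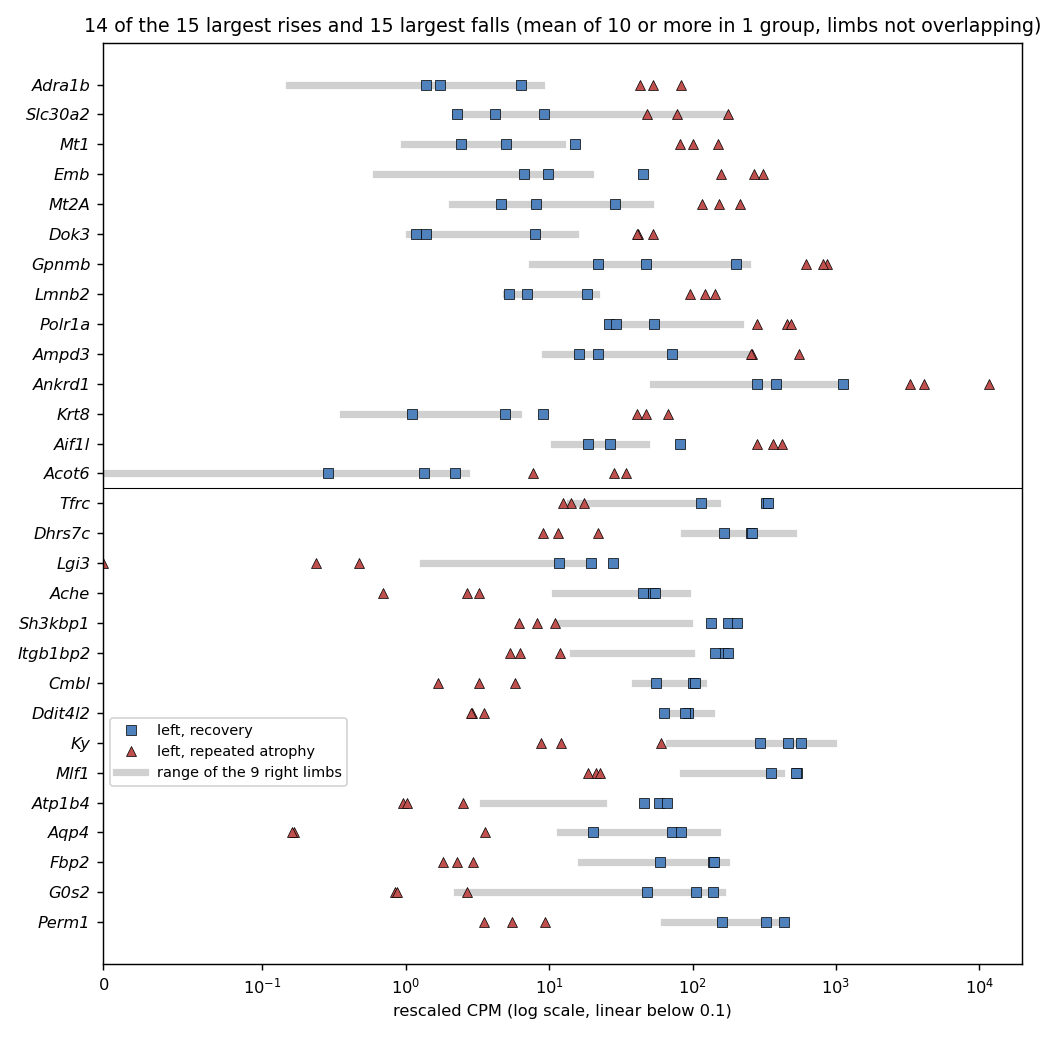
Rescaled CPM (log scale, linear below 0.1) of 14 of the 15 largest rises (upper part) and 15 largest falls (lower part) between recovery and repeated atrophy left limbs; squares and triangles are single limbs and grey bars span the 9 right limbs. The 3 limbs of the groups are apart in all 29 genes by selection. For Atp1b4, Itgb1bp2 and Sh3kbp1 the recovery limbs lie above the grey bar and the repeated atrophy limbs below it. Limbs of the sham-operated animals are not shown.

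Tuba8 and Tuba4a, which encode alpha tubulins, were the rises among the 7 rows called within animals. Tuba8 held 432, 325 and 384 in the repeated atrophy and 97.2, 110.3 and 111 in the recovery left limbs (log2 FC 1.82, SE 0.38, adjusted p = 0.004), while its right limbs held 156, 229 and 285 and 347, 384 and 529 and so leaned the other way (log2 FC -0.93). The left limb exceeded the right in each repeated atrophy animal and fell short of it in each recovery animal, for a within-animal log2 FC of 2.75 (adjusted p = 0.034). Tuba4a followed the same order, with 903, 840.0 and 1133 and 155, 148 and 339 in the left and 208, 406 and 626 and 751, 815 and 1048 in the right limbs (within-animal log2 FC 3.45, adjusted p = 0.034). The other 5 of these 7 rows were falls: Atp1b4 (-3.79), Itgb1bp2 (-3.37), Lmcd1 (-2.47), Tsc22d1 (-1.90) and 1 of the rows of Ldb3 (-3.05, chromosome 16, 9892430 to 9918450). Tsc22d1, a leucine zipper factor, held 141, 119 and 92.8 against 459.7, 454 and 543 in the left limbs (log2 FC -2.05, SE 0.23, adjusted p = 0.00014). Without both limbs of the animal of recovery replicate 3 the within-animal fit called 12 rows, and without any 1 of the other animals of the 2 groups it called 0.

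The 5 genes with the smallest p between the right limbs, none of which passed after adjustment, were Immt, Nxn, Wnt16, Edar and Nr5a1. Immt, which organises the cristae of mitochondria, held 198, 163 and 151 in the right limbs of repeated atrophy animals and 295, 298 and 366 in those of recovery animals (log2 FC -0.91, unadjusted p = 1.4e-05). In the left limbs it held 178, 173 and 177 against 381, 384 and 283 (log2 FC -0.97, adjusted p = 0.015, lost without recovery replicate 1 or 2, up to 0.062, not called on the deposited scale), so that the within-animal log2 FC was -0.06. Nxn, a thioredoxin relative, differed in the right limbs by 0.84 and in the left by 0.23 (adjusted p = 0.6).

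**Figure D5:**
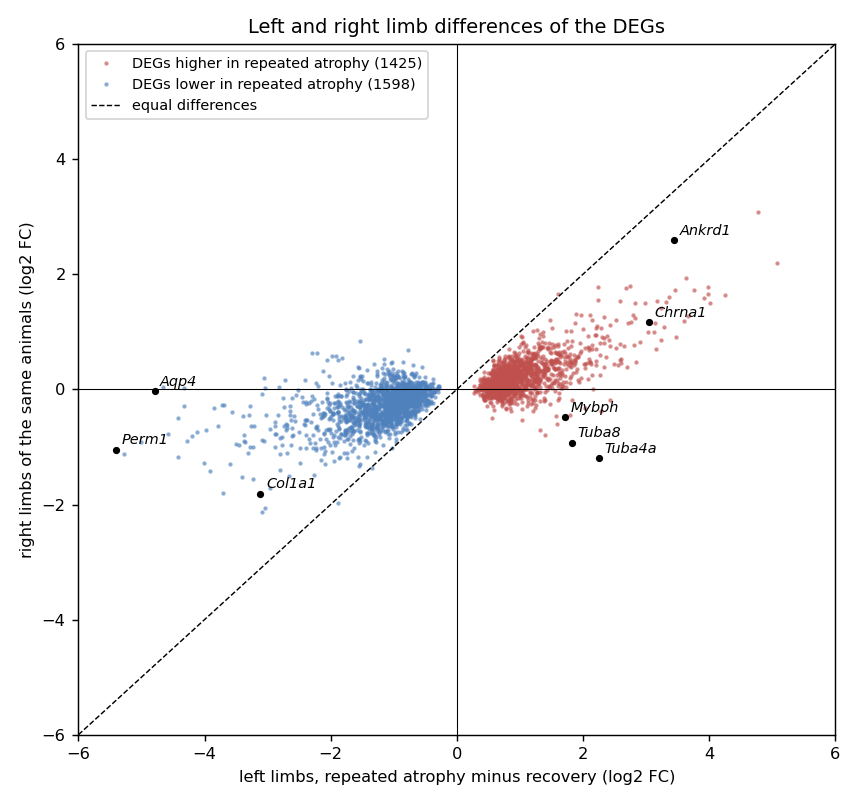
Left limb log2 FC (horizontal axis) against right limb log2 FC (vertical axis) of the 3023 DEGs, repeated atrophy minus recovery, with selected genes marked; red and blue points are DEGs higher and lower in repeated atrophy, and the dashed line marks equal differences. Most points lie in the quadrants of equal sign and nearer to the horizontal than the dashed line, while Tuba8, Tuba4a and Mybph lie in the quadrant of opposite sign.

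Set against the range of the 9 right limbs, the DEGs fell into a few patterns, which a count over all rows puts in context. Of the 1425 upregulated DEGs, 723 (50.7%) had a recovery mean within the right limb range and a repeated atrophy mean above it, against 12.5% of all rows. A recovery mean below the range and a repeated atrophy mean within it was found in 335 (23.5%, against 6.65%), and a passage from below to above in 139 (9.75%, against 1.0%). Of the 1598 downregulated DEGs, 628 (39.3%, against 9.18% of all rows) went from within to below and 582 (36.4%, against 10.0%) from above to within, as Col1a1 and Col3a1 did. A further 130 (8.14%, against 0.962%) went from above to below, and both means stayed within the range in 136 upregulated (9.54%) and 194 downregulated DEGs (12.1%), against 49.6% of all rows. For most DEGs, the mean of the 3 atrophy limbs was between the recovery and the repeated atrophy means (1182 upregulated and 1343 downregulated). It was beyond the repeated atrophy mean in 231 and 243, and on the far side of the recovery mean in 12 and 12. DEGs were chosen for the distance between the outer 2 of these means, so the counts describe and do not test the order. The 3 atrophy limbs also differed among themselves in some lists. Mean list levels, less those of the right limbs, were -1.465, -0.307 and -1.455 for glycolysis and -1.551, -0.294 and -1.688 for the fast sarcomere. For the proteasome they were 0.337, 0.31 and 0.205. The atrophy mean therefore need not describe each limb.

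NAD metabolism had 2 upregulated and 7 downregulated of 18 (11.1% and 38.9%, against 10.2% and 11.4% of all rows; median log2 FC -0.39, -0.17 on the deposited scale, -0.49 within animals; 1 upregulated without repeated atrophy replicate 2 or 3 or recovery replicate 1 or 2, 3 downregulated on the deposited scale and without recovery replicate 1, and 4 without repeated atrophy replicate 1 or recovery replicate 2). Nmnat3, the mitochondrial enzyme that makes NAD, fell from 40.1, 44.6 and 27.2 to 13.8, 14.3 and 10.9 (log2 FC -1.43, adjusted p = 0.0045), Nampt, the rate-limiting salvage enzyme, from 139.8, 172 and 135 to 69.9, 94.2 and 78.7 (log2 FC -0.87, adjusted p = 0.0066, not called on the deposited scale), and the deacetylase Sirt2 rose (log2 FC 1.03, adjusted p = 0.0013). In the growth factor and myostatin list, 3 of 26 were upregulated and 6 downregulated (11.5% and 23.1%; median log2 FC -0.09, 0.01 with quantile normalization, -0.06 without repeated atrophy replicate 3, -0.16 without recovery replicate 1, 0.04 without recovery replicate 3, -0.10 within animals, 0.14 on the deposited scale, which called 4 higher and 1 lower; 2 downregulated without recovery replicate 1, 3 without repeated atrophy replicate 1 or 3 or recovery replicate 3). Runx1, a factor that protects denervated fibres, and Fst, the myostatin antagonist follistatin, rose (log2 FC 2.72 and 2.10, adjusted p = 0.0075 and 0.0028). Tnfrsf12a, the TWEAK receptor, rose in repeated atrophy replicate 1 above all (99.3, 28.1 and 17.4 against 6.64, 8.99 and 9.84, log2 FC 2.01, adjusted p = 0.034, kept only without repeated atrophy replicate 3, up to 0.18). Igf1 fell (log2 FC -1.03, adjusted p = 0.013, not called on the deposited scale, lost without repeated atrophy replicate 1 or recovery replicate 1, up to 0.067), and Mstn, myostatin, did not pass (log2 FC -0.46).

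Cholesterol synthesis and uptake had 5 upregulated and 2 downregulated of 22 (22.7% and 9.09%, against 10.2% and 11.4% of all rows; median log2 FC -0.06, 0.12 with quantile normalization, 0.10 without repeated atrophy replicate 1, -0.11 without repeated atrophy replicate 2, -0.14 without repeated atrophy replicate 3, 0.12 within animals, 0.22 on the deposited scale; 3 upregulated and 1 downregulated without repeated atrophy replicate 1 or 2 or recovery replicate 1 or 2), with a rise of Lss, lanosterol synthase (log2 FC 1.49, adjusted p = 0.006). Fatty acid synthesis had 0 upregulated and 2 downregulated of 18 (11.1% downregulated, against 11.4% of all rows). This list had 0 downregulated on the deposited scale, 1 without repeated atrophy replicate 1 and 0 without any other single limb. Its regulator Srebf1 stood at 31.9, 18 and 24.1 against 115, 81.4 and 87.8 (log2 FC -1.92, adjusted p = 0.037, lost whichever limb was left out, up to 0.11), and Scd, the stearoyl-CoA desaturase, ranged over 43.4, 397 and 362 and 189.9, 254 and 1034 (log2 FC -0.99, SE 1.00). The ATF4 stress response had 2 of 23 in either direction (8.7% each, below the shares of all rows). It had 0 upregulated without repeated atrophy replicate 1 or recovery replicate 1 or 2, while 4 were without recovery replicate 3 and the deposited scale called 6 higher. Of its members, Ppp1r15a rose (log2 FC 1.48, adjusted p = 0.032, lost without repeated atrophy replicate 1 or recovery replicate 1 or 2, up to 0.16), Atf5 fell (log2 FC -1.33, adjusted p = 0.01), and Atf4 itself was not called (log2 FC -0.78, adjusted p = 0.16). Of 15 clock genes, 2 of them called higher on the deposited scale, Cry1 was downregulated (log2 FC -0.65, adjusted p = 0.025, not called on the deposited scale, kept only without repeated atrophy replicate 1 or recovery replicate 3, up to 0.091), and Arntl and Dbp, which peak at opposite times of day, were not called (log2 FC 1.00 and 0.22).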

How the data were processed

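Poly(A) RNA of the TA was sequenced as directional paired-end libraries. Per the study's methods and the submitters' processing notes, the authors removed contaminant reads with Bowtie2 (2.2.5) and aligned the rest with STAR to rn7, working in Partek Flow. Which annotation was used and how shared reads were counted is not given in the sources used here. The deposited table holds CPM values, counts scaled per library, each column summing to 1000000, made by the authors from gene counts. Of low values, 88.0% to 89.5% per library were whole multiples of the library's smallest step (within 0.02 of a step), so whole reads were not recovered and the planned count tests (edgeR, DESeq2) were not run. The table held 14271 rows. After 28 exact duplicates were dropped, 14243 remained, and 513 symbols had several rows, for which the row with the highest mean was named. Another 3 value columns matched no sample and were not used.

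CPM were rescaled by the median of ratios over the 18 limbs of TTX animals (11461 rows above 0 in all), as the authors' DESeq2 normalization does for counts. limma (3.58.1, under R 4.3.3) was fitted, with a trend of the variance on the mean level, to log2(rescaled CPM + 1) of rows above 0 in at least 3 of the 18 limbs, in 4 groups: 9 right limbs as control, and 3 left limbs each of atrophy, recovery and repeated atrophy. The added 1 makes fold changes of low genes too small. The Benjamini-Hochberg adjustment ran over all 14031 rows. The right limbs of the 2 sets of animals were compared in a fit with their own groups, and the within-animal difference in a fit with the animal as a block. The pairing comes from the labels, since both limbs belong to 1 animal; the correlation of left and right deviations from group means was above 0.1 in 4 of 9 animals, with a mean of 0.123. Sham limbs were left out of the fits. The code was tested on simulated data with 200 changed genes. Genes were named by 3 rules: list members with the largest changes and genes the study names, the 15 largest rises and 15 largest falls, and the 5 smallest p of the right limb and within-animal comparisons; others, such as further members named for their role, were chosen after their values were seen. Of the genes the rules name, 2 are not reported here, 1 of them among the 15 rises. The comparison, the gene lists and the tests were chosen with earlier results of these data known. Each symbol was matched to RefSeq promoters (GRCr8). Alternative scalings, pseudocounts, filters, fits, the animal block and the omission of each limb were tried.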

Additional observations from a re-analysis of the deposited data

Results flagged for a closer look

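For 7 genes the left minus right difference differed between repeated atrophy and recovery animals (adjusted p at most 0.05 in the limma fit that blocks on the animal): log2 differences of -3.79 for Atp1b4, -3.37 for Itgb1bp2, -3.05 for 1 row of Ldb3, -2.47 for Lmcd1, -1.90 for Tsc22d1, 3.45 for Tuba4a and 2.75 for Tuba8. Among 29 of the largest rises and falls, 4 genes had 1 right limb far from the other 8, with a gap to the nearest limb, as a share of the range, above the 95% critical value of Dixon, which chance passes in about 1 of 20 groups. The right limb of 1 atrophy animal was highest for Slc30a2 (gap over range 0.918), Polr1a (0.746) and Ampd3 (0.773), and the right limb of repeated atrophy replicate 3 for Acot6 (0.674).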

How the results depend on the processing

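The count of DEGs (3023) stayed within 1.5 times under all scalings, pseudocounts, filters and limma settings tried. With the replicate block (the animal as a fixed effect) 7 were called, and leaving out 1 limb gave 1554 to 2641. The share of DEGs that were lower (52.9%) was 23.1% on CPM as deposited, 49.3% with TMM, 49.4% with quantile normalization, 49.5% with a pseudocount of 10, 45.0% for rows with a mean of at least 10 CPM, 71.4% with the replicate block and 51.2% to 59.6% with 1 limb left out. The right limbs had 5 DEGs when only these 6 limbs were fitted and 0 to 1 with 1 animal left out, and the within-animal difference had 12 on CPM as deposited and 0 to 12 with 1 animal left out. By more than the spread between limbs, directions reversed for the growth factor median on CPM as deposited (0.141), with quantile normalization (0.014) and without recovery replicate 3 (0.041, with -0.158 without recovery replicate 1), for the proliferation median in rows with a mean of at least 10 CPM (0.587, resting on only 2 genes) and for the endothelium median on CPM as deposited (0.084). Medians smaller than that spread changed sign as well: cholesterol synthesis from -0.060 to 0.217 on CPM as deposited, 0.116 with quantile normalization, 0.116 with the replicate block and 0.101 without repeated atrophy replicate 1, Schwann cell markers from -0.102 to 0.034 on CPM as deposited and with quantile normalization, and the ATF4 response from 0.046 to between -0.020 and -0.047 without repeated atrophy replicate 3, recovery replicate 2 or recovery replicate 3. Collagens had a lower median than glycolysis on CPM as deposited (-1.28 against -1.24), with quantile normalization (-1.46 against -1.24), with a pseudocount of 0.1 (-1.84 against -1.61) and in 4 of the 6 fits with 1 limb left out: without repeated atrophy replicate 2 (-1.73 against -1.61) or 3 (-1.60 against -1.50) and recovery replicate 1 (-1.53 against -1.52) or 2 (-1.67 against -1.50). Of the 38 list medians, 28 moved by more than 1.5 times or changed sign on CPM as deposited, 19 with a pseudocount of 10 (19 of them towards 0), 17 with the replicate block (13 towards 0), 8 with a pseudocount of 0.1 and 8 with quantile normalization. Other settings moved further list counts by more than 1.5 times, among them downregulated proliferation genes from 7 to 3 with quantile normalization, a pseudocount of 10 or rows of at least 1 CPM, downregulated muscle fibre markers from 4 to 2 with quantile normalization, and upregulated genes from 1 to 4 for fatty acid oxidation when only the 6 limbs were fitted. The causes were not tested. The named genes kept their direction in every alternative run where they had been called. Tests on recovered counts were not run. With 3 animals a group, a difference that did not pass is not shown to be absent.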
